A study of Mus musculus with 12 samples.

Results

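Genes for 3 vasoactive peptide systems, those of adrenomedullin, endothelin 1 and the natriuretic peptides, were followed in mouse muscle fibroblasts given a mineralocorticoid receptor (MR) agonist or antagonist. The members were chosen by gene symbol as a set of 10 of the 28995 genes in the deposited tables: *Ramp1*, *Ramp2*, *Ramp3*, *Calcrl* and *Adm* of the adrenomedullin system, *Edn1*, *Ednra* and *Ednrb* of the endothelin system, and *Npr2* and *Npr3* of the natriuretic peptide system. They were picked with their aldosterone differences already known, so their values in the aldosterone libraries are a description and carry no p-value. All 10 were found in each of the 3 tables.

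Adrenomedullin (*Adm*) is a secreted vasodilator peptide, and it signals through the receptor encoded by *Calcrl*, which reaches the cell surface only together with a receptor activity-modifying protein (RAMP). *Calcrl* with *Ramp2* or *Ramp3* forms an adrenomedullin receptor and with *Ramp1* the receptor for calcitonin gene-related peptide, and these receptors raise cyclic AMP. Endothelin 1 (*Edn1*) is a vasoconstrictor that acts on the A and B type receptors (*Ednra*, *Ednrb*), the B type also taking the peptide up for clearance. *Npr2* encodes the guanylyl cyclase receptor of C-type natriuretic peptide, while *Npr3* encodes the clearance receptor, which has no cyclase. Blood vessels are the best-known site of all 3 systems, and fibroblasts also express several of these receptors.

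Fibroblasts came from the hindlimb muscles of 2 wild-type C57 BL/10 mice at postnatal day 3, were enriched by adherence and were treated at passage 2 as cells pooled within a mouse. Every plate was kept in medium with charcoal-stripped serum, which removes endogenous steroids, and received 0.01% DMSO for 48 hours, either alone (vehicle) or with 1 µM aldosterone, the natural MR agonist, or 1 µM spironolactone, an MR antagonist. Each treatment had 4 libraries of poly(A) RNA, from 2 plates per mouse, labelled by a sample number and then a biological replicate number, each 1 or 2 (plate 1_2 is sample number 1, replicate 2). The labels do not say which of these numbers is the mouse, so p-values here measure the spread between plates and may be partly technical.

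Libraries held 19136923 to 30219185 reads on genes (median 23833379). The 7 fibroblast markers, from *Col1a1* to *Thy1*, summed to 31502 to 35615 CPM (counts scaled to a common library total) with aldosterone, 38449 to 42504 with vehicle and 35263 to 39909 with spironolactone. This sum was thus lower in every aldosterone library than in any vehicle library, and its part in the results below was not tested. *Col1a1* and *Col1a2* made up most of it, and *Col1a1* did not pass (limma adjusted p = 0.0527). At any fold change, 0 of the 7 markers were called lower with aldosterone than with vehicle. *Pdgfra* went the other way from the sum and was called higher (log2 difference 0.91, limma adjusted p = 2.93e-08). The 5 macrophage markers reached at most 12.3 CPM and the 5 myogenic markers at most 5.73 CPM. The endothelial sum, over 7 markers, was 29.3 to 32.1 CPM with aldosterone, 20.2 to 22.7 with vehicle and 19.8 to 21.8 with spironolactone, and *Tek* and *Kdr* made up most of it. The defining endothelial genes were near 0, with means of 0.120 CPM for *Pecam1* and 0.640 CPM for *Cdh5* with aldosterone. The 5 mural cell markers summed to 77.4 to 138 CPM with aldosterone, 95.3 to 142 with vehicle and 96.2 to 153 with spironolactone. Fewer cells of a type and less RNA per cell cannot be told apart in such bulk samples.

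The promoters of 9 members were in the RefSeq table used here (build GRCm38.p6, from 250 bases before to 50 after the start of each gene), with *Ramp2* the missing entry. The 250 bases before the start are shown for a peptide that was higher with aldosterone, for a RAMP that was higher and for a receptor that was lower, since these stand for the directions described below. Capitals mark every match, on either strand, to AGAACA, a steroid receptor hexamer shared by MR and the glucocorticoid receptor, or to ACGTG or GCGTG, the core of the hypoxia response element, of which ACGTG is also part of an E-box.
*Adm* (chr7:110627407-110627656, plus strand): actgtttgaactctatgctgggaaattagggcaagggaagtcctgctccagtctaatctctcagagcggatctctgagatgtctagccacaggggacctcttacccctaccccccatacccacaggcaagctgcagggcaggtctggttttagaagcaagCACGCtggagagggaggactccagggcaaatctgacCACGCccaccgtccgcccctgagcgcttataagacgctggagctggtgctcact
*Ramp3* (chr11:6658283-6658532, plus strand): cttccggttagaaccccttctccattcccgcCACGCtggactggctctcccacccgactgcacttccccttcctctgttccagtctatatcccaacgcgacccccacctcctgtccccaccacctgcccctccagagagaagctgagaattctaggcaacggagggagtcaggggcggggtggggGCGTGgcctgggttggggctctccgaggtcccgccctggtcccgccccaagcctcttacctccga
*Ednrb* (chr14:103843702-103843951, minus strand): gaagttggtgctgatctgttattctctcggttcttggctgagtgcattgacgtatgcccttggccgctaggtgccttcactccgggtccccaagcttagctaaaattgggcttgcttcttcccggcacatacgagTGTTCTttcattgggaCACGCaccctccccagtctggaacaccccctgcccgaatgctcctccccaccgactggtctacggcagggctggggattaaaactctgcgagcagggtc

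The hexamer stood 115 bases before the *Ednrb* start, 31 bases before that of *Npr3* and at base 1 of *Calcrl*, so in 3 of the 9 promoters, against 19.0% of all 32851 promoters of the table. The hypoxia core was found in 5 of the 9 (*Ramp3*, *Calcrl*, *Adm*, *Edn1* and *Ednrb*) and in 43.8% of all promoters. In *Adm* the core lay 90 and 54 bases before the start, and in *Ramp3* 219 and 65 bases before it. The promoter of *Ramp1*, a RAMP that was also higher with aldosterone, held neither the hexamer nor the hypoxia core. A pair of hexamers facing each other 3 bases apart was in 0 of the 9 and in 3 of all promoters (0.00913%), and the AP-1 motif TGANTCA was in 0 of the 9 against 7.81%. These matches describe the letters of a short window only.

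Among the members, adrenomedullin and the natriuretic receptors dominated in vehicle-treated fibroblasts. On the scale of CPM per kilobase of gene length, the only one used here to compare genes, the vehicle level was 54.5 ± 5.53 (SD, n = 4) for *Adm*, 34.2 ± 3.78 for *Npr2* and 13.1 ± 1.93 for *Npr3*. The next level, 2.98 ± 0.192 CPM per kb for *Ramp2*, overlapped within its spread with 2.86 ± 0.124 for *Calcrl*, and *Ednra* at 2.31 ± 0.258, *Ramp1* at 1.79 ± 0.331, *Edn1* at 1.16 ± 0.208 and *Ednrb* at 0.704 ± 0.123 followed. *Ramp3* was the lowest at 0.213 ± 0.0794 CPM per kb. With aldosterone, *Ramp2* stood above *Npr3*, at 18.2 ± 0.930 against 13.2 ± 1.86 CPM per kb, and *Ednrb*, at 0.214 ± 0.0409, stood below *Ramp3*, at 0.618 ± 0.258. The place of *Ramp2* in these orders is uncertain, since another gene overlaps it, as described below.

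**Figure D1:**
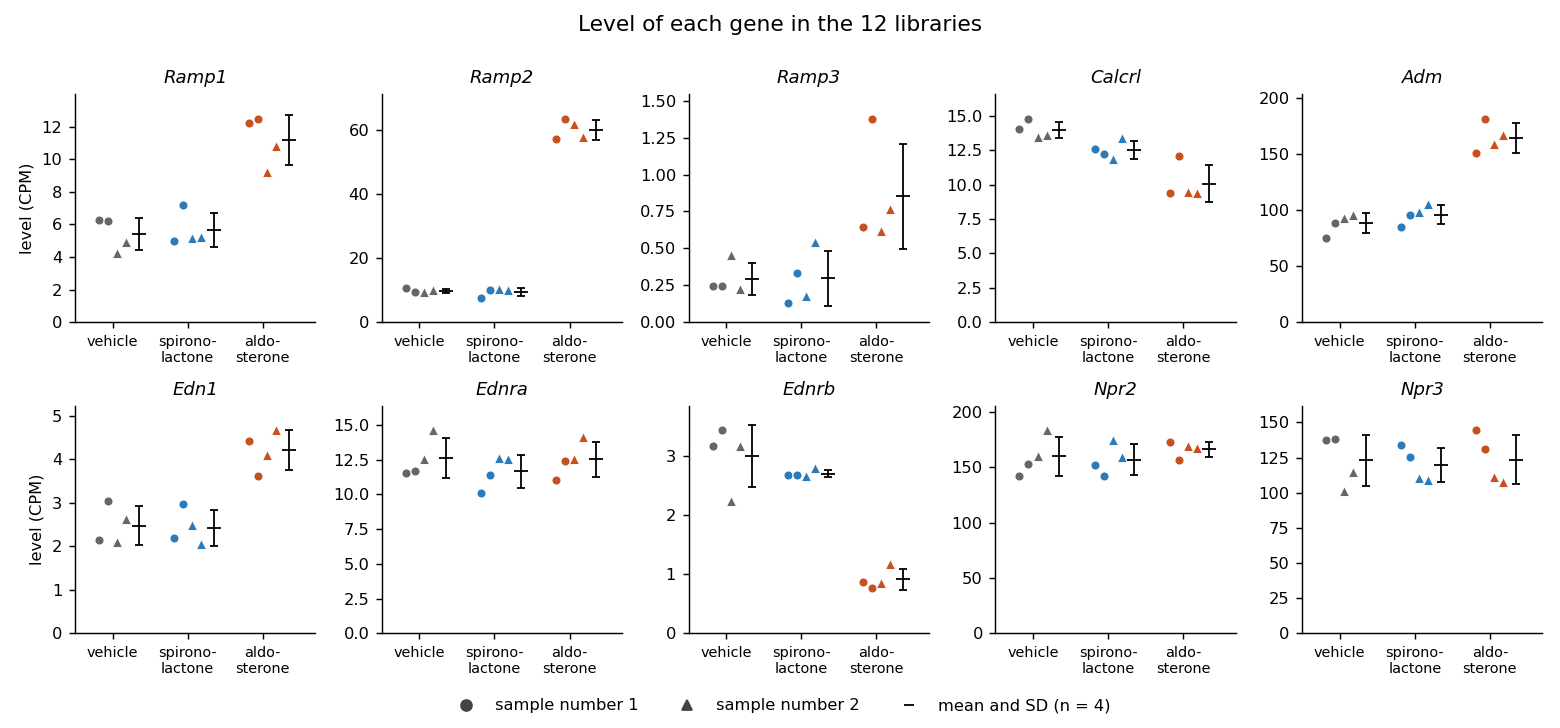
Level of each of the 10 genes in the 12 libraries, in CPM on the vertical axis and by treatment on the horizontal axis, where circles are plates of sample number 1, triangles plates of sample number 2, and the bar at the side of each group the mean and SD of 4 libraries. The aldosterone libraries stand above the others for the RAMPs, *Adm* and *Edn1* and below them for *Ednrb*, while *Npr3* and *Ednra* separate by sample number in all 3 treatments.

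With aldosterone, all 3 RAMP genes and both peptide genes were higher than with vehicle, *Ednrb* and *Calcrl* were lower, and *Ednra*, *Npr2* and *Npr3* were not called, their plates overlapping those of vehicle. *Ramp2* had the largest difference of the 10, at 6.07-fold, and *Ednrb* was at 0.313 times its vehicle level. At the thresholds of the study, an adjusted p up to 0.05 with a log2 difference of 1 or more in either direction, 3 members were called higher (*Ramp1*, *Ramp2* and *Ramp3*) and 1 lower (*Ednrb*), where 1.4% of the 27319 genes tested were called higher and 0.666% lower. At any fold change 5 members were called higher and 2 lower, with 5.68% and 4.74% of all genes, but nothing can be read from these counts since this contrast chose the members. The median log2 difference of the 10 was 0.41 beside -0.006 for all genes.

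*Ramp2* lies at chr11:101136854-101150372 on the plus strand (positions here and for the other genes are those in the tables, build mm39 in the processing notes). Its level was 57.1, 63.5, 61.7 and 57.8 CPM in the aldosterone plates 1_1, 1_2, 2_1 and 2_2. In the same order it was 10.7, 9.30, 9.42 and 9.88 CPM in the vehicle plates and 7.58, 10.1, 10.2 and 9.99 CPM in the spironolactone plates. The lowest aldosterone plate was thus well above the highest of the other 8. On the log2(normalized count + 1) scale the aldosterone minus vehicle difference was 2.60 (SE 0.072, 95% interval 2.45 to 2.76). It was 2.59 within sample number 1 and 2.62 within sample number 2. *Vps25*, a gene on the same strand at chr11:101144533-101150375, overlaps the end of *Ramp2*, and it was listed at means of 0.450 CPM with aldosterone and 0.330 CPM with vehicle. How the counter treated reads in the shared bases is not given in the sources used here, so the absolute level of either gene is uncertain. The higher endothelial marker sum given above moved with *Ramp2*, and of its 7 markers *Kdr* alone was called (7.06 against 1.89 CPM, limma adjusted p = 0.00183). Its part in the result was not tested.

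*Ramp1* (chr1:91107544-91152918, plus strand) measured 12.3, 12.5, 9.21 and 10.8 CPM in aldosterone plates 1_1, 1_2, 2_1 and 2_2. It measured 6.30, 6.23, 4.28 and 4.90 CPM in the vehicle plates and 4.99, 7.18, 5.18 and 5.20 CPM in the spironolactone plates. No plate of the other treatments reached the lowest aldosterone plate. The aldosterone minus vehicle difference was 1.04 (SE 0.141) on the log2 scale, so it lay at the threshold of 1. Leaving out aldosterone plate 1_1 or 1_2 or vehicle plate 2_1 or 2_2 put it at 0.99, 0.99, 0.94 and 1.00, each under that threshold before rounding.

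*Ramp3* (chr11:6608521-6627475, plus strand) was scarce, with 12 to 34 reads per library in the aldosterone plates, 5 to 9 in the vehicle plates and 3 to 13 in the spironolactone plates. These reads gave 0.648, 1.38, 0.619 and 0.767 CPM with aldosterone, 0.246, 0.246, 0.458 and 0.227 CPM with vehicle and 0.131, 0.334, 0.177 and 0.541 CPM with spironolactone, each in the order 1_1, 1_2, 2_1, 2_2. Aldosterone plate 1_2 was far above the other 3 of its group, although the groups did not overlap. The log2 difference from vehicle was 1.38 (SE 0.398) with all plates and 1.14 without that plate. The call was lost when any plate other than vehicle 2_1 was left out, over which the difference ranged from 1.14 to 1.50. Averaging plates within a sample number lost the call too.

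*Calcrl* (chr2:84160970-84255755, minus strand), the shared receptor that all RAMPs pair with, went the other way. It measured 9.39, 12.0, 9.44 and 9.37 CPM in the aldosterone plates, 14.1, 14.8, 13.4 and 13.6 CPM in the vehicle plates and 12.6, 12.2, 11.9 and 13.4 CPM in the spironolactone plates. The aldosterone plates all lay below the vehicle plates, whereas plate 1_2 reached into the range of the spironolactone plates. Its log2 difference was -0.48 (SE 0.099) from vehicle, or 0.715 times, and -0.32 (SE 0.100) from spironolactone, which did not pass the adjusted p threshold. Without aldosterone plate 1_2 the difference from spironolactone was -0.41 and passed, and with sample number as the replicate block it passed too. With plates averaged within a sample number, neither the difference from vehicle nor that from spironolactone passed.

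*Adm* (chr7:110226868-110229027, plus strand), the ligand of these receptors, was 151, 182, 159 and 167 CPM in the aldosterone plates. The vehicle plates gave 75.5, 88.9, 93.3 and 95.4 CPM and the spironolactone plates 84.7, 95.8, 98.0 and 106 CPM. All aldosterone plates were above the others by a wide margin, and the log2 difference from vehicle was 0.90 (SE 0.075), a fold of 1.86 that stays under the fold threshold. An antisense gene at the same locus, *Gm28863*, had a mean of 0.283 CPM with aldosterone and 0.112 CPM with vehicle.

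Relative to each other, the receptor transcripts of this system shifted with aldosterone. Summed per kilobase, the 3 RAMPs stood at 1.91, 1.67, 1.67 and 1.71 times *Calcrl* in the vehicle plates, at 1.56, 2.28, 2.03 and 1.88 times in the spironolactone plates and at 11.3, 9.87, 11.5 and 11.3 times in the aldosterone plates. *Ramp2* made up 59.8% ± 3.19 (SD, n = 4) of the 3 RAMPs with vehicle, 58.1% ± 3.69 with spironolactone and 80.8% ± 2.43 with aldosterone. Between spironolactone and vehicle neither the ratio to *Calcrl* (difference 0.197, two-sided exact permutation test, p = 0.286) nor the *Ramp2* share (difference -1.75 percentage points, p = 0.543, same exact test) passed, where the smallest p that 4 against 4 plates allow is 0.0286. That test did not take sample number into account, although the *Ramp2* share was higher in the plates of sample number 2 within each treatment. It could thus miss a small difference within sample numbers. Since *Vps25* overlaps *Ramp2*, the size of this ratio and of this share is uncertain in every treatment. Transcript ratios say nothing of the proteins.

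**Figure D2:**
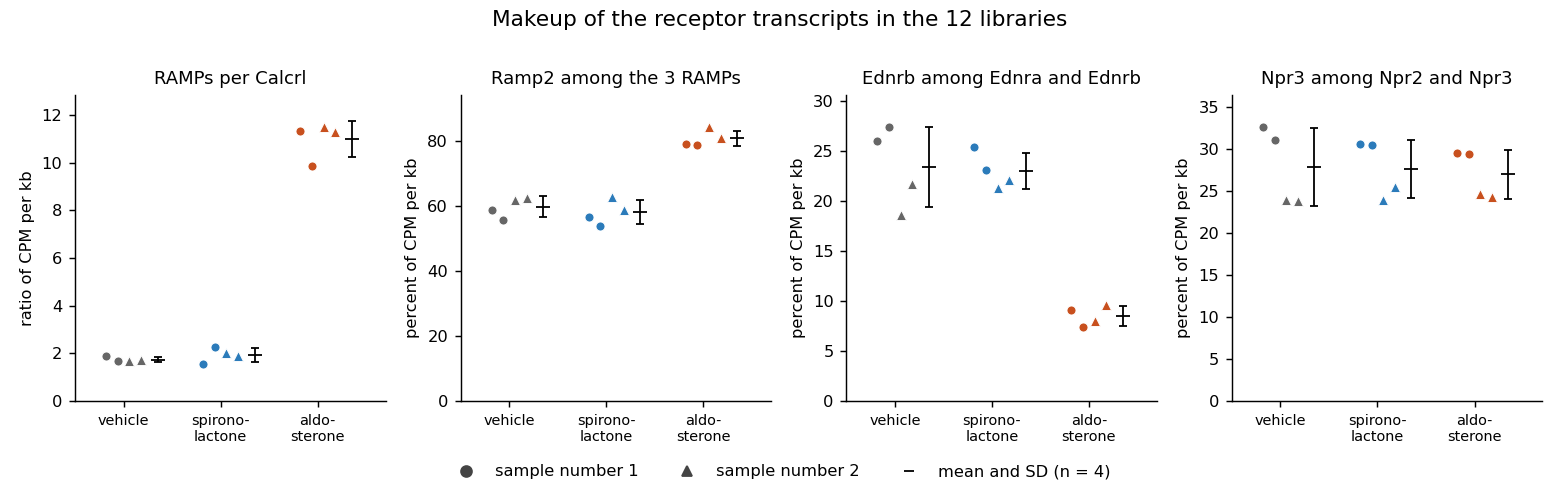
Makeup of the receptor transcripts by treatment: the 3 RAMPs summed per *Calcrl* (a ratio of CPM per kb), *Ramp2* as a percent of the 3 RAMPs, *Ednrb* as a percent of *Ednra* and *Ednrb*, and *Npr3* as a percent of *Npr2* and *Npr3*. Points are libraries (circles sample number 1, triangles sample number 2) and bars the mean and SD of 4. The aldosterone libraries stand apart in the first 3 panels. The sample numbers stand apart in the last panel and, within each treatment, in the second.

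In the endothelin system the ligand was higher with aldosterone, the B receptor was lower and the A receptor differed by less than the spread between plates. *Edn1* (chr13:42454952-42461466, plus strand) measured 4.43, 3.61, 4.10 and 4.67 CPM in the aldosterone plates, 2.15, 3.03, 2.09 and 2.63 CPM in the vehicle plates and 2.19, 2.97, 2.48 and 2.04 CPM in the spironolactone plates. The groups did not overlap, and the vehicle and spironolactone plates that came nearest were both 1_2, as was the lowest aldosterone plate. The log2 difference from vehicle was 0.76 (SE 0.172), or 1.69-fold, and it lost its adjusted p call without aldosterone plate 2_2, at 0.71. That call was also lost with plates averaged within a sample number.

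*Ednrb* (chr14:104052061-104081838, minus strand) measured 0.864, 0.771, 0.851 and 1.17 CPM in the aldosterone plates, from 16 to 35 reads per library. It was 3.17, 3.44, 2.24 and 3.17 CPM in the vehicle plates and 2.67, 2.67, 2.66 and 2.79 CPM in the spironolactone plates. Every aldosterone plate was below all others, and the log2 difference from vehicle was -1.68 (SE 0.233, 95% interval -2.17 to -1.18). Within sample number 1 it was -1.96 and within sample number 2 -1.39. *Ednrb* is also a gene of neural crest cells such as Schwann cells, and the sum of 3 Schwann cell markers was 12.8 to 18.9 CPM with aldosterone, 9.79 to 13.5 with vehicle and 11.6 to 13.9 with spironolactone. Most of that sum was *S100b*, which was called higher with aldosterone (log2 difference 0.50, limma adjusted p = 0.0141), while *Sox10* had group means of at most 0.525 CPM. Their part in the result was not tested.

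*Ednra* (chr8:78389660-78451093, minus strand) ranged from 11.0 to 14.1 CPM with aldosterone, 11.6 to 14.6 with vehicle and 10.1 to 12.6 with spironolactone. The 3 ranges overlapped, and the log2 difference of aldosterone from vehicle was -0.02 (95% interval -0.23 to 0.20). Of the receptor transcripts per kilobase, *Ednrb* made up 26.0%, 27.4%, 18.6% and 21.8% in the vehicle plates and 9.15%, 7.38%, 8.02% and 9.58% in the aldosterone plates. Its mean share with spironolactone was 23.0% ± 1.77 (SD, n = 4), against 23.4% ± 4.01 with vehicle. The exact permutation test, again without regard to sample number, did not separate these 2 treatments (p = 0.83).

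The natriuretic peptide receptors were among the most highly expressed members and were not called with aldosterone. *Npr2* (chr4:43631935-43651244, plus strand) was 172, 156, 169 and 167 CPM with aldosterone, 142, 153, 160.1 and 184 CPM with vehicle and 152, 142, 175 and 159 CPM with spironolactone. *Npr3* (chr15:11839982-11907373, minus strand) was 145, 131, 111 and 107 CPM with aldosterone, 138, 138, 101 and 115 CPM with vehicle and 134, 125, 110.3 and 109 CPM with spironolactone. For both genes the values of the 3 treatments overlapped, although within sample number 1 the aldosterone plates of *Npr2* lay above those of vehicle (log2 difference 0.16). The aldosterone minus vehicle log2 difference had a 95% interval of -0.09 to 0.20 for *Npr2* and of -0.22 to 0.22 for *Npr3*. An antisense gene overlaps *Npr2*, *Gm12473*, with a mean of 12.9 CPM with aldosterone and 12.0 CPM with vehicle, and whether the counting used strand is not given in the sources used here.

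Against spironolactone the aldosterone libraries gave values of similar size, and both comparisons share those libraries. The log2 difference from spironolactone beside that from vehicle was 2.67 and 2.60 for *Ramp2*, 0.99 and 1.04 for *Ramp1*, and 1.50 and 1.38 for *Ramp3*. For *Adm* it was 0.78 and 0.90, for *Edn1* 0.79 and 0.76, and for *Ednrb* -1.54 and -1.68. At both thresholds 2 members were called higher (*Ramp2* and *Ramp3*) and 1 lower (*Ednrb*), with 1.38% and 0.521% of the 27631 genes tested. At any fold change 5 were called higher and 1 lower, with 4.93% and 3.96% of all genes. *Ramp1* was left out of the first count only because its difference lay just under 1. The *Ramp3* call was lost without any 1 plate other than spironolactone 2_2, with differences from 1.23 to 1.62 in those cases. With plates averaged within a sample number, the calls of *Ramp3* and *Edn1* against spironolactone were lost.

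**Figure D3:**
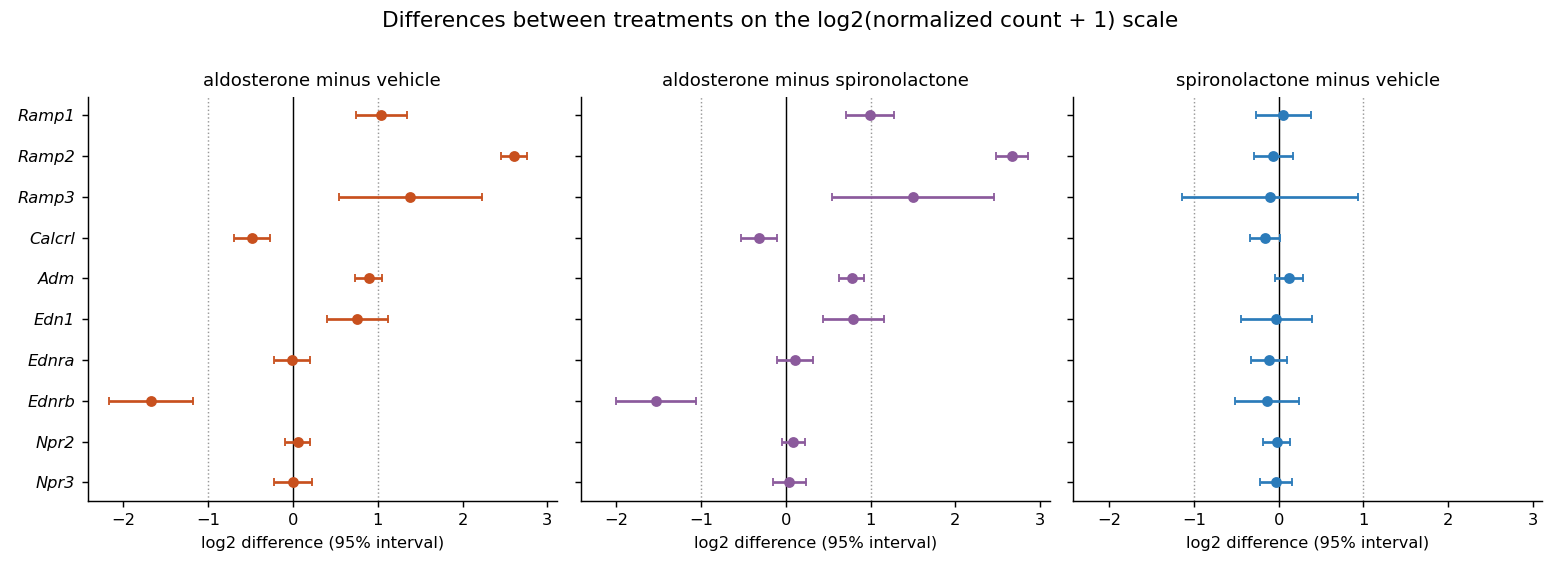
Log2 difference of each gene on the log2(normalized count + 1) scale, with its 95% interval, for aldosterone minus vehicle, aldosterone minus spironolactone and spironolactone minus vehicle; dotted lines mark the fold threshold of 1. *Ramp2* lies far to the right and *Ednrb* to the left in the first 2 panels, which share the aldosterone libraries, and all intervals of the third panel include 0.

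Spironolactone alone was compared with vehicle, to see whether the antagonist moved these genes without added agonist. The vehicle libraries also entered the contrast that chose the members, so this test is not fully independent of that choice. None of the 10 passed, with limma adjusted p-values from 0.934 to 0.999 and 0 members at an unadjusted p of at most 0.05. In the whole table limma called 0 of 27598 genes (0%), with 1251 at an unadjusted p under 0.05, while edgeR called 0 genes and DESeq2 13. Members called were 0 of the 9 that edgeR fitted, *Ramp3* being filtered out, and 0 of the 6 to which DESeq2 gave an adjusted p. The intervals bound what could have been missed. For *Ramp2* the log2 difference was -0.06 (95% interval -0.29 to 0.17), for *Adm* 0.12 (-0.04 to 0.28) and for *Ednrb* -0.14 (-0.51 to 0.23). *Ramp3* was the least well bounded, from -1.15 to 0.93. Over all plates, *Calcrl* was the 1 member whose groups did not overlap on this table's scale, at 299 ± 16.2 normalized counts with spironolactone against 335 ± 14.5 with vehicle (SD, n = 4), a log2 difference of -0.16 (-0.34 to 0.01). Within each sample number the *Calcrl* plates did not overlap either (-0.22 and -0.10), nor did those of *Ednra* (-0.12 and -0.11), which overlapped when the numbers were pooled. Plates of *Ramp1*, *Ramp2* and *Adm* were apart within sample number 2 only, and those of *Ednrb* and *Npr3* within sample number 1 only. The share of all genes with such separations was not counted, so nothing is read from them.

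Plates also differed by sample number, which was tested in the spironolactone and vehicle libraries with treatment in the fit. *Npr3* was lower in sample number 2 by a log2 difference of -0.29 (SE 0.045, limma adjusted p = 7.92e-06), *Npr2* was higher by 0.20 (SE 0.045, adjusted p = 0.00190) and *Adm* was higher by 0.19 (SE 0.050, adjusted p = 0.00911). These 3 of 10 members stand beside 8.17% of all genes called in either direction in that fit. Only 2 sample numbers were compared, so these p-values measure the spread between plates and not that between animals. The 4 *Npr3* plates of sample number 1 ran from 125 to 138 CPM and those of sample number 2 from 101 to 115 CPM. The aldosterone libraries did not enter this test, but they share its 2 sample numbers and are no independent support. In those libraries the plates of the 2 sample numbers overlapped for *Adm* and *Npr2*. *Adm* was at 151 and 182 CPM in sample number 1 against 159 and 167 CPM in sample number 2. *Npr2* was at 172 and 156 CPM against 169 and 167 CPM. The *Npr3* level of the aldosterone libraries was 145 and 131 CPM in sample number 1 and 111 and 107 CPM in sample number 2. *Npr3* therefore made up 29.4% to 32.5% of *Npr2* and *Npr3* per kilobase in the 6 plates of sample number 1 and 23.7% to 25.5% in the 6 of sample number 2, while its mean share was 26.9%, 27.6% and 27.8% with aldosterone, spironolactone and vehicle. When any 1 library was left out, *Npr3* kept its call (adjusted p 0.0119 to 0.0484) and *Adm* and *Npr2* lost theirs, with an adjusted p of at least 0.0946 and 0.0548.

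The aldosterone difference itself was compared between sample numbers by an interaction term, which limma called for 4 of 27319 genes (0.0146%) and edgeR for 12. For the members, whose aldosterone values chose them, the values are given as a description with no test. The point estimates were farthest apart for *Ramp3*, at 1.78 within sample number 1 and 0.99 within sample number 2 (interval of the difference -2.51 to 0.92), and for *Ednrb* (-0.38 to 1.52). *Ramp2* was bounded to a difference between -0.26 and 0.31.

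**Figure D4:**
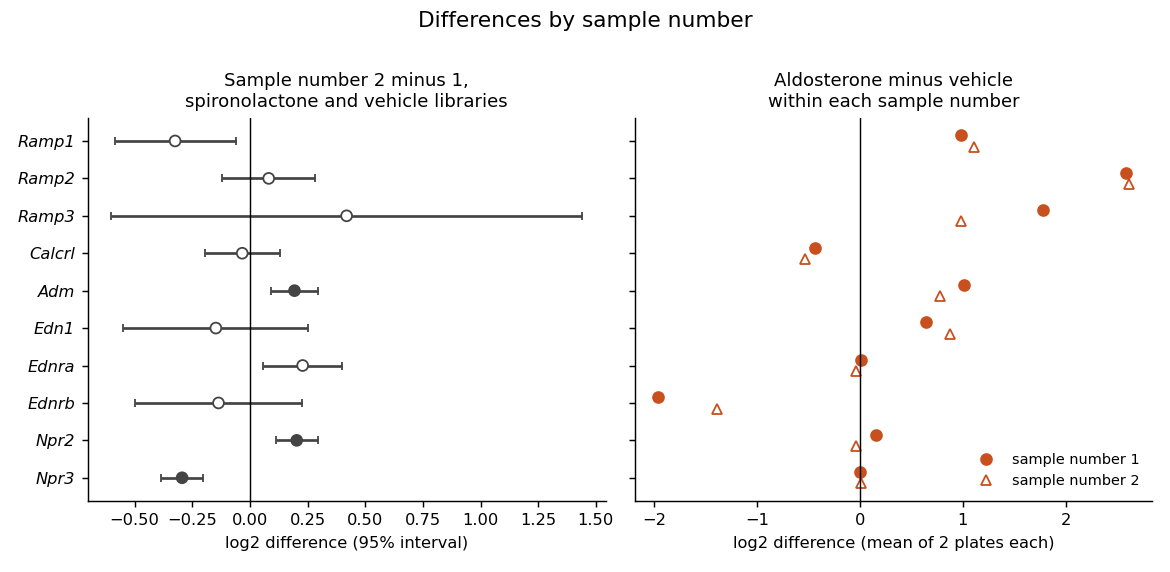
Left, log2 difference of sample number 2 minus sample number 1 in the spironolactone and vehicle libraries with its 95% interval, where filled points passed an adjusted p of 0.05 (*Adm*, *Npr2* and *Npr3*). Right, log2 difference of aldosterone minus vehicle within each sample number, from 2 plates a side; the markers of the 2 sample numbers lie on the same side of 0 for the 7 genes called with aldosterone.

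Other genes of these pathways were taken from 4 lists of 47 ligands, receptors, processing enzymes and second messenger genes. The lists were written by role but with earlier results of these data known, so their counts and adjusted p-values are no independent test. In all, 43 were tested (*Iapp*, *Calcr*, *Edn3* and *Kel* were not in the tables used here), and 5 rose and 6 fell with aldosterone at any fold change, 2 and 1 of them at both thresholds. Over all genes 5.68% rose and 4.74% fell at any fold change, and 1.4% and 0.666% did so at both thresholds. The median log2 difference was -0.10, beside -0.006 for all genes. Between spironolactone and vehicle 0 of them were called, beside 0 of all 27598 genes tested. A replicate block on sample number gave 7 that rose and 10 that fell, whereas plates averaged within a number gave 1 and 1, and without any 1 library 2 to 4 rose and 2 to 4 fell, so most of the calls named below do not hold in every fit.

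Of the calcitonin family list 1 of 7 rose and 0 fell. *Calca*, the gene of calcitonin and calcitonin gene-related peptide, was called higher on few reads, 5, 7, 5 and 21 with aldosterone against 0, 0, 3 and 1 with vehicle, so its fitted log2 difference of 2.30 (SE 0.588, limma adjusted p = 0.0174) moves with the pseudocount. *Pam*, the enzyme that amidates adrenomedullin, was at 555 ± 95.5 against 535 ± 66.1 CPM (SD, n = 4) and did not pass, nor did the scavenger receptor *Ackr3* (log2 difference -0.40, adjusted p = 0.0901).

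Of the 11 genes for Gs and cyclic AMP signalling 0 rose and 3 fell. The cyclic AMP phosphodiesterase *Pde4b* fell from 19.2 ± 2.13 to 7.60 ± 0.197 CPM (log2 difference -1.33, SE 0.093, adjusted p = 4.63e-08), and smaller falls were found for the adenylyl cyclase *Adcy7* (-0.53, adjusted p = 0.00608) and the protein kinase A subunit *Prkacb* (-0.20, adjusted p = 0.0337). *Gnas*, which encodes the Gs subunit these receptors use, was at 141 and 139 CPM and did not pass.

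Of 10 endothelin pathway genes 2 rose and 1 fell. *Ece1*, the enzyme that cuts the endothelin precursor to its active form, rose from 213 ± 28.9 to 309 ± 59.4 CPM (0.53, SE 0.117, adjusted p = 0.00682). Among the phospholipases downstream of the receptors, *Plcb3* rose (0.23, adjusted p = 0.0315) and *Plcb1* fell (-0.29, adjusted p = 0.0327).

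The natriuretic list had 2 of 15 genes higher and 2 lower. The cyclic GMP-dependent kinase *Prkg1* rose from 75.3 ± 2.92 to 103 ± 4.18 CPM (0.45, SE 0.054, adjusted p = 2.26e-05), whereas *Prkg2* fell (-0.45, adjusted p = 0.0482), as did the soluble guanylyl cyclase subunit *Gucy1b1* (-0.56, adjusted p = 0.0412). *Nppc*, the ligand of *Npr2*, was called higher (adjusted p = 0.00715) on 2, 3, 2 and 7 reads with aldosterone against 0 in every vehicle library, so no fold is given. *Npr1*, the receptor of the atrial peptide, had 11, 19, 12 and 24 reads against 7, 1, 10 and 2, and its log2 difference of 1.74 did not pass (adjusted p = 0.0535).

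**Figure D5:**
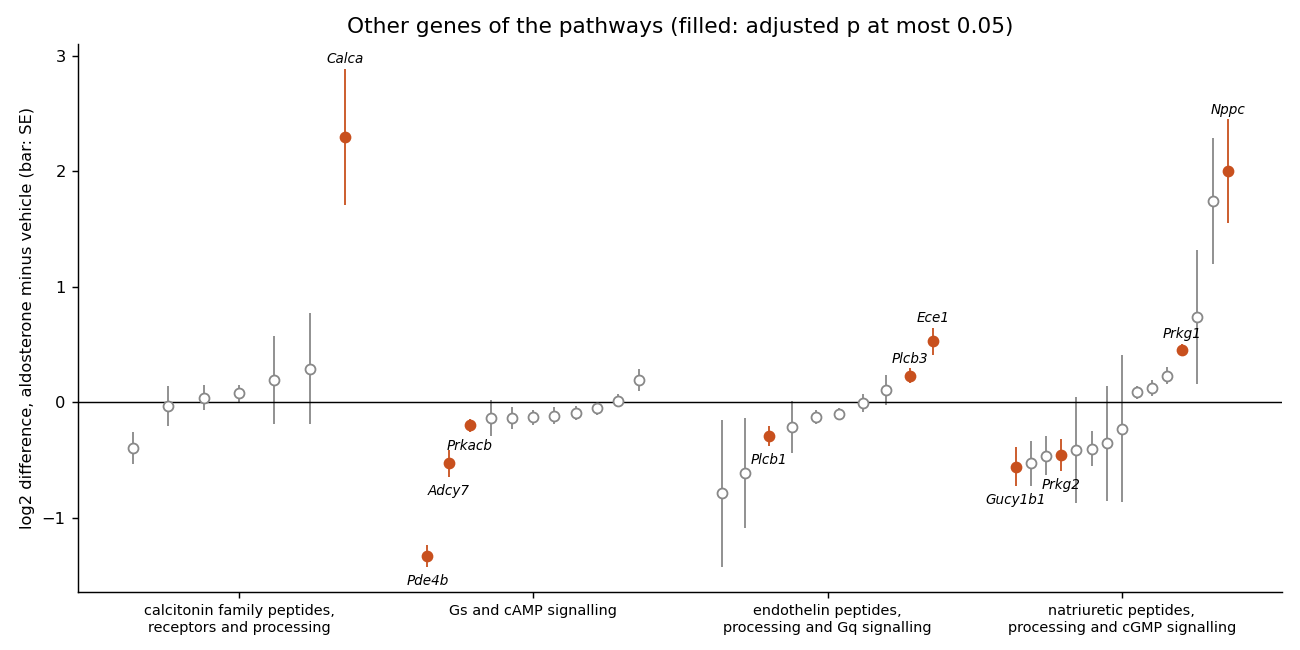
Log2 difference of aldosterone minus vehicle (with its SE as the bar) for the 43 other genes of the 4 pathway lists, ordered by value within each list; filled and named points passed an adjusted p of 0.05. Of the 5 that rose 0 are in the Gs and cyclic AMP list, and of the 6 that fell 0 are in the calcitonin family list. *Calca* and *Nppc* rest on few reads.

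By likeness across the 12 libraries, measured as the mean absolute difference of log2 CPM after centring each gene, *Tsc22d3* (0.0921), *Pdk4* (0.145) and *Fabp4* (0.184) were closest to *Ramp2* among the 13509 genes whose mean reached 1 CPM. The genes closest to *Ednrb* were *Igsf10* (0.152), *Pde4b* (0.175) and *Hgf* (0.175). All 3 treatments enter this measure, so it mostly reflects the aldosterone difference.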

How the data were processed

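Per the labels, the authors aligned reads with HISAT2 (version 2.0.5) and counted them with featureCounts (version 1.5.0-p3), with mm39 as the build in the processing notes; the methods name mm9, whose positions the tables do not carry. The deposited signal values are normalized counts, each library's gene counts over its size factor, in a table for each pair of treatments. The authors' own log2 fold changes and p-values of DESeq2 in those deposited tables, and their group means, were not used. Reads were recovered from the smallest step of 22 of 24 columns, where 100% of values were whole within 0.01 reads, and taken from the library's other table for the rest. No columns of other series were present.

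Every gene of a table was tested with limma (version 3.58.1, R 4.3.3, trend in the prior variance) on log2(value + 1), treatment being the only factor, with Benjamini-Hochberg adjustment. Levels are CPM of recovered reads with TMM factors over all 12 libraries (edgeR version 4.0.16). The alternatives were edgeR's quasi-likelihood test, DESeq2 (version 1.42.0) on recovered reads, a pseudocount of 0.5, a mean of at least 10, TMM log2 CPM with a prior count of 2, a replicate block on sample number, plates averaged within a number, and leaving out each library. Tests were checked on simulated data. Across treatments, libraries sharing a sample number had deviations from their group means that correlated in all 24 pairs (Pearson's r 0.212 to 0.463 across 13510 genes, which are not independent), so the pairing comes from the labels' sample numbers; for the biological replicate number the mean r was -0.005. No 2 libraries of a group agreed within sampling noise. Chi-square per gene was 3.73 to 8.27 for pairs sharing a sample number and 13.3 to 22.9 for the other pairs.

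The members and lists were chosen with earlier results of these data known. A pathway gene and a cell type marker of those lists are not reported here. Genes named are the members, pathway genes called at both thresholds, up to 8 others with an adjusted p of at most 0.05 and a mean of at least 10, and for the members with the highest and the lowest difference the 3 closest genes. Genes named beyond this rule (*Pam*, *Ackr3*, *Gnas*, *Npr1* and overlapping genes) were chosen after their values were seen. With 4 libraries a group, *Ramp3* and the other genes with few reads have the least precision.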

Additional observations from a re-analysis of the deposited data

Results flagged for a closer look

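In 5 of 30 checks, each of 1 member in 1 treatment, a single plate stood apart from the other 3 of its group by Dixon's criterion at the 95% level, which chance alone meets in about 1 in 20 groups. For *Ramp1* it was the highest spironolactone plate, 1_2, at 7.18 CPM, and for *Ramp2* the lowest spironolactone plate, 1_1, at 7.58 CPM. *Ramp3* had its highest vehicle plate, 2_1, at 0.458 CPM, on few reads. *Calcrl* had aldosterone plate 1_2 at 12.0 CPM, whereas the other 3 lay between 9.37 and 9.44 CPM, and leaving this plate out moves the difference from spironolactone from -0.32 to -0.41. For *Ednrb* the highest spironolactone plate, 2_2, was at 2.79 CPM, in a group whose whole range was 2.66 to 2.79 CPM. Aldosterone plate 1_2 also held the highest level of *Ramp1*, *Ramp2*, *Ramp3* and *Adm* and the lowest of *Edn1*, *Ednrb* and *Npr2* in its group, which was noticed after the values were seen.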

How the results depend on the processing

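The direction of every member's aldosterone difference named in the report as higher or lower was kept under all alternatives run. With plates averaged within a sample number, 3 members were called higher than vehicle and 1 lower at any fold change, in place of 5 and 2, and of the pathway genes 0 were higher at both thresholds, and 1 was higher and 1 lower at any fold change; against spironolactone the members called higher were 1 at both thresholds and 3 at any fold change, and *Calcrl* was called against neither. With edgeR, with DESeq2 and with a mean of at least 10, 1 pathway gene was higher at both thresholds in place of 2. A replicate block on sample number gave 10 pathway genes lower at any fold change in place of 6, and 2 members lower than spironolactone in place of 1, as also with a mean of at least 10. The block changed no other call of a member and moved no other count by over 1.5 times. Without 1 library at a time, members higher than vehicle were 1 to 2 at both thresholds (3 with all libraries) and 3 to 5 at any fold change; pathway genes were 1 to 3 higher at both thresholds and, at any fold change, 2 to 4 higher and 2 to 4 lower; members were 1 to 2 higher and, at any fold change, 1 to 2 lower than spironolactone; and by sample number 1 to 2 passed in place of 3, *Ramp1* joining without spironolactone plate 1_1 (-0.45, limma adjusted p = 0.0363). In the spironolactone and vehicle comparison 0 of the members that had an adjusted p passed under each alternative run, which was 6 with DESeq2, 9 with edgeR or a mean of at least 10, and 10 otherwise. Calls of *Ramp3*, *Calca* and *Nppc* rest on few reads, and 4 plates from 2 mice limit every call.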
